A study of Arabidopsis thaliana with 12 samples.

Results

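The comparison of 3'-butyl ABA with 3'-propyl ABA sets a pair of derivatives of abscisic acid (ABA) against each other at the same dose and time. Arabidopsis thaliana Col-0 seedlings, a wild type accession, were treated with 10 µM of either compound for 6 h, with 3 libraries for each compound. These 6 libraries were chosen by their treatment label, out of 12 in the series; the other 6 come from seedlings given ABA or the vehicle DMSO and are used here only as background levels. Every group was grown on agar medium with sucrose in 96-well plates at 22 °C and treated in liquid medium under continuous light, so all groups share the sucrose and the change of medium. The sample labels give an age of 8 days and the series text 7 days. Whole seedlings were used, so roots and shoots were measured together, and nothing states whether the 3 libraries of a group came from separate cultures. The p-values therefore measure the spread between these libraries, which may be technical.

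ABA is the plant hormone of drought and seed dormancy. It binds soluble receptors of the PYR/PYL family, and the occupied receptor inhibits clade A PP2C phosphatases. SnRK2 kinases are then free to phosphorylate bZIP transcription factors of the ABF and ABI5 group, which bind the ABA-responsive element (ABRE) in the promoters of dehydration genes. The compounds compared here carry an alkyl chain at the 3' position of ABA, a butyl chain in one and a shorter propyl chain in the other. Only 1 pair of compounds was compared.

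Seedlings given 3'-butyl ABA had lower transcript levels than seedlings given 3'-propyl ABA for dehydration proteins, PP2C phosphatases, ABA-breaking hydroxylases, wax synthesis and chlorophyll breakdown, and higher levels for ABA receptors, expansins, auxin-responsive SAUR genes and photosynthesis. Levels are in TPM, a length-corrected share of each library's transcripts scaled to a total of 1000000, and a change is the log2 fold change of 3'-butyl ABA over 3'-propyl ABA on log2(TPM + 1), given ± its standard error. Of 19396 genes that averaged 1 TPM or more in the 6 libraries, limma called 10065 at a Benjamini-Hochberg adjusted p below 0.05, which is 51.9% of those tested. Among them 6385 (32.9%) were higher and 3680 (19.0%) lower with 3'-butyl ABA. The excess of higher calls depended on scaling. It was 63.4% of the calls here, 47.9% with median-of-ratios scaling (4562 higher, 4970 lower) and 52.5% with quantile normalization (4852 higher, 4398 lower), and the median change of all genes was 0.129 as deposited, 0.013 after median-of-ratios scaling and 0.021 after quantile normalization. The medians of gene lists below are to be read against that 0.129. Counts of called members are to be read against the 32.9% higher and 19.0% lower of all genes tested.

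Most differences were small. Of the called genes, 79.7% differed by less than 1 log2 unit, which is 2-fold. By at least that much, 1167 genes (6.02%) were higher and 876 (4.52%) lower with 3'-butyl ABA. The median half-width of the 95% interval was 0.245, and for 15160 genes (78.2%) it lay wholly within 1 log2 unit of 0. Of the 9331 genes that were not called, 8947 had such an interval and 384 had one that reached past 1 log2 unit, so for these 384 a 2-fold difference in at least 1 direction was not excluded. The 3 libraries of one compound lay wholly above or below those of the other for 12003 genes (61.9%).

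**Figure D1:**
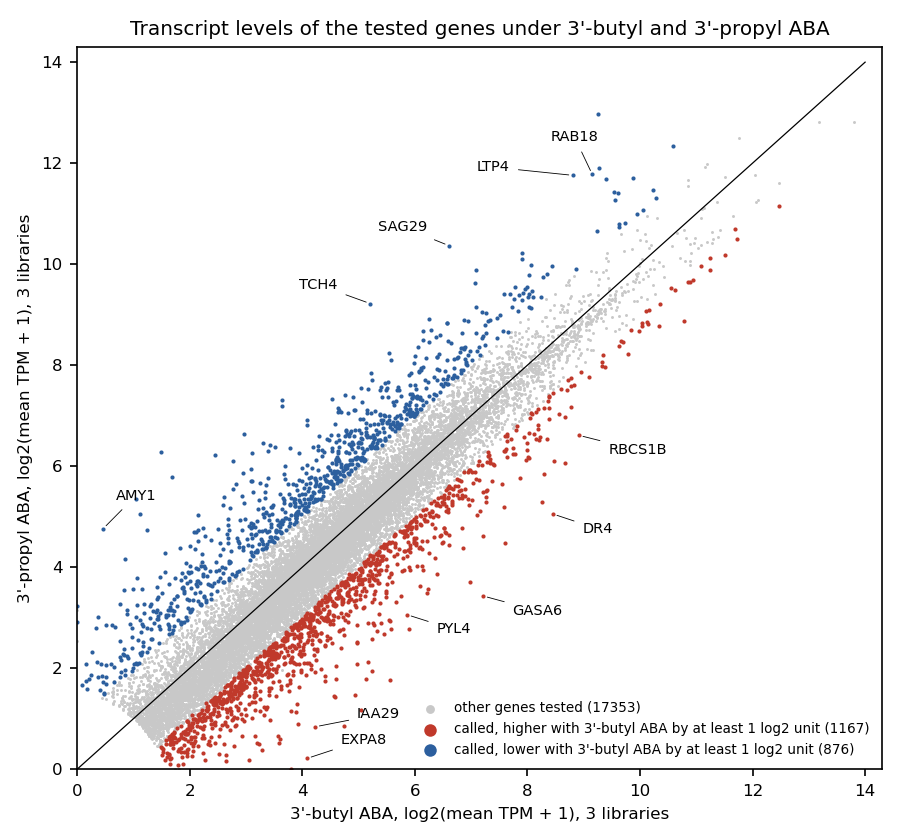
Each point is a gene tested, at log2(mean TPM + 1) over the 3 libraries with 3'-butyl ABA (x axis) and with 3'-propyl ABA (y axis), and the line marks equal levels. The 1167 red genes were called at least 1 log2 unit higher with 3'-butyl ABA and the 876 blue genes at least 1 log2 unit lower; RAB18, LTP4, SAG29 and TCH4 lie far above the line and GASA6, DR4 and PYL4 far below it.

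The libraries of each compound were close to each other. Pearson correlations of log2(TPM + 1) were 0.987 to 0.993 between libraries of the same compound and 0.927 to 0.946 between compounds. The first principal component held 81.7% of the variance of the 6 libraries and separated the compounds, with the 3'-butyl ABA libraries at 43.4 to 46.1 and the 3'-propyl ABA libraries at -50.1, -49.8 and -35.2, the last being replicate 1. Read depth, estimated from the smallest steps of the values, was 9430000 to 11500000 reads in genes, and 1 read in a transcript of 1 kb was worth 0.139 to 0.169 TPM.

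For 9 of the 12 genes with the largest decreases, the mean with 3'-butyl ABA lay between that with 3'-propyl ABA, which was higher, and that of seedlings given DMSO, which was lower. AT5G39520, a gene of unknown function with a DUF1997 domain (chromosome 5, 15823735 to 15825566 in TAIR10.1), had 2.28, 1.35 and 1.76 TPM with 3'-butyl ABA, against 64.9, 67.2 and 98.4 TPM with 3'-propyl ABA. The change was -4.79 ± 0.18 (limma adjusted p = 4.4e-07), and DMSO libraries averaged 0.0492 TPM and ABA libraries 5.64 TPM. SAG29, which encodes a sugar exporter of the SWEET family induced in senescence (chromosome 5, 4181042 to 4183354), had 96.7, 101 and 90.7 TPM with 3'-butyl ABA, against 1150.0, 1287 and 1519 TPM with 3'-propyl ABA, a change of -3.75 ± 0.10 (limma adjusted p = 2.4e-07). Neither gene had overlapping groups, which the rule that chose the leading genes required. SAG29 averaged 9.31 TPM in DMSO libraries and 163 TPM in ABA libraries. The late embryogenesis abundant (LEA) gene AT3G02480 had 683, 587 and 550.2 TPM with 3'-butyl ABA, against 7947, 7039 and 9052 TPM with 3'-propyl ABA (-3.72 ± 0.11). The alpha-amylase gene AMY1 (-4.30 ± 0.16), the cellulose synthase-like gene CSLG2 (-4.09 ± 0.15), AT4G18422 (-4.28 ± 0.25), the LEA-domain gene AT2G18340 (-3.92 ± 0.16), the glyoxalase gene GLYI7 (-3.78 ± 0.18) and the cytochrome P450 gene CYP76C2 (-3.54 ± 0.12) showed the same order of levels.

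TCH4, PHI-1 and AT4G27280, the other 3, had a higher level in DMSO than in 3'-butyl ABA libraries. TCH4 encodes a xyloglucan endotransglucosylase known as a touch-induced gene (chromosome 5, 23307006 to 23308680). It had 42.9, 26.6 and 38.1 TPM with 3'-butyl ABA, against 499, 706 and 579.5 TPM with 3'-propyl ABA, a change of -4.03 ± 0.19 (limma adjusted p = 3.9e-06), while DMSO libraries averaged 129 TPM, above every 3'-butyl ABA library and below every 3'-propyl ABA library. PHI-1, of a phosphate-responsive family, averaged 6.81 ± 2.94 TPM with 3'-butyl ABA, against 98.1 ± 26.6 TPM with 3'-propyl ABA (SD, n = 3 each), with 27.0 TPM in DMSO libraries. AT4G27280, an EF-hand calcium-binding protein gene, averaged 11.4 ± 3.47 TPM with 3'-butyl ABA, against 158 ± 27.4 TPM with 3'-propyl ABA (SD, n = 3 each), with 23.2 TPM in DMSO libraries. For these 3 genes the DMSO mean thus stood between the means of the compounds.

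The genes with the largest increases included genes of cell expansion and auxin response whose levels were low with 3'-propyl ABA. GASA6, a gibberellin-regulated peptide gene linked to cell elongation (chromosome 1, 28053030 to 28054149), had 178, 128 and 137 TPM with 3'-butyl ABA, against 17.1, 6.39 and 5.81 TPM with 3'-propyl ABA. Its change was 3.92 ± 0.39 (limma adjusted p = 0.00040), and it averaged 266 TPM in DMSO libraries and 63.7 TPM in ABA libraries. The expansin gene EXPA8, whose product loosens cell walls, had 18.7, 13.5 and 15.7 TPM with 3'-butyl ABA, against 0.255, 0 and 0.222 TPM with 3'-propyl ABA (3.87 ± 0.17). RGF6, which encodes a root meristem growth factor peptide, had 15.3, 8.59 and 14.6 TPM with 3'-butyl ABA and was listed at 0 in every 3'-propyl ABA library, so no fold is given. DR4, a gene named for its repression by drought, had 397, 325 and 327 TPM with 3'-butyl ABA, against 46.6, 19.6 and 30.3 TPM with 3'-propyl ABA (3.48 ± 0.29), and its DMSO mean was 328 TPM. No gene among these 4 had overlapping groups, which the rule that chose the leading genes required. The other leading increases were the pectin lyase-like gene AT5G63180 (3.91 ± 0.19), the methyltransferase gene AT1G15125 (3.87 ± 0.13), the MATE efflux gene AT3G23550 (3.81 ± 0.17), the glycine-rich protein gene AT5G61660 (3.72 ± 0.52), the auxin-response repressor IAA29 (3.41 ± 0.18), the dark-induced oxygenase DIN11 (3.39 ± 0.23), SAUR20 (3.33 ± 0.48) and the xyloglucan endotransglucosylase gene XTH31 (3.29 ± 0.11). AT1G15125 shares 6.35% of its 100-base stretches with the neighbouring AT1G15120, and reads from them cannot be told apart with certainty.

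**Figure D2:**
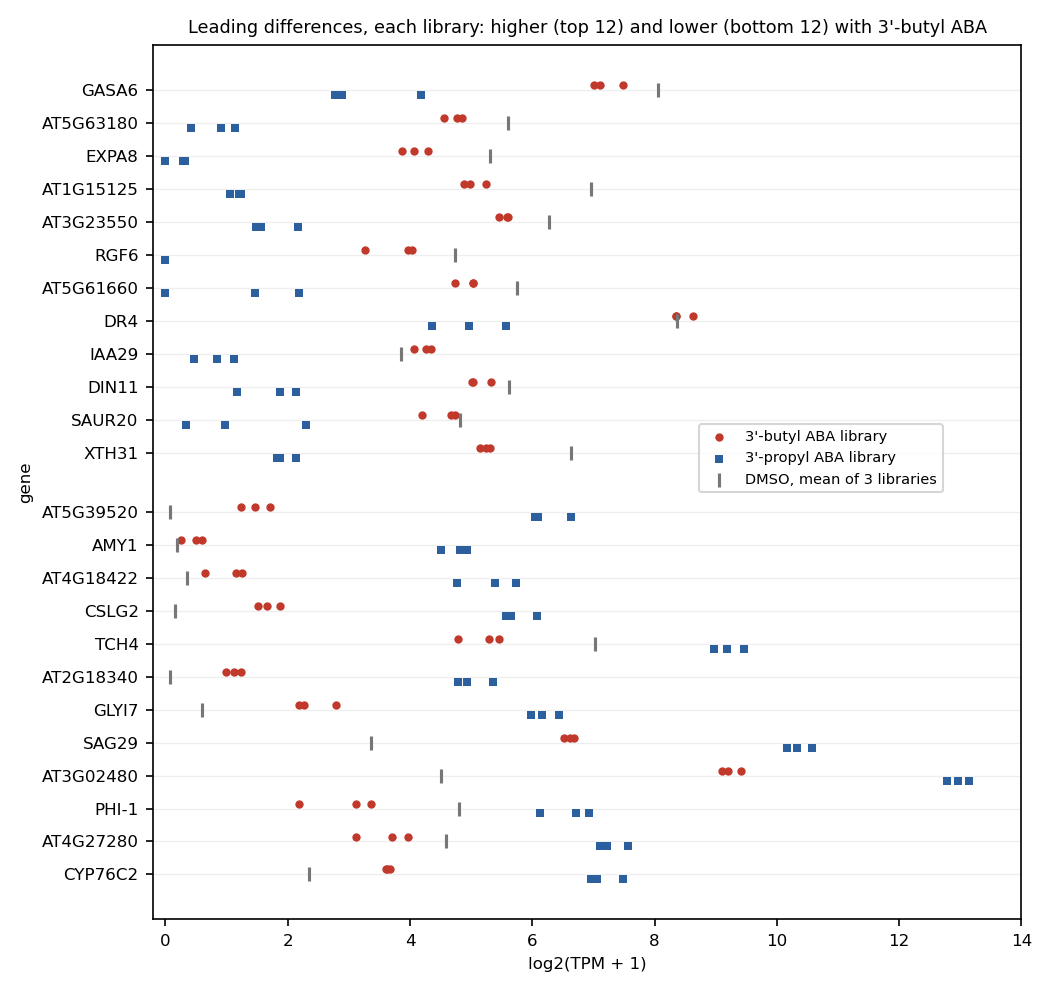
The 12 genes with the largest increase (top) and the 12 with the largest decrease (bottom) with 3'-butyl ABA are shown as log2(TPM + 1) in each of the 3 libraries with 3'-butyl ABA (red circles) and the 3 with 3'-propyl ABA (blue squares), with the DMSO mean as a grey tick. The groups do not overlap for any of the 24 genes, as the rule that chose them required, and the DMSO tick of the top genes lies near or above the red circles in every case but IAA29.

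Whole seedlings mix cell types, and markers of several root cell types were higher with 3'-butyl ABA. Endodermis markers summed to 145, 114 and 135 TPM with 3'-butyl ABA, against 68.8, 47.0 and 50.8 TPM with 3'-propyl ABA. The sum also varied within groups, at 142, 65.0 and 66.2 TPM in DMSO libraries and 109, 66.9 and 56.0 TPM in ABA libraries. Replicate 1 was the highest in every group, and the reason was not tested. Of the 8 markers 6 were called higher, as were 32.9% of all genes tested, among them CASP1 (1.52 ± 0.20) and CASP2 (2.02 ± 0.34), which build the Casparian strip. Root hair markers summed to 142, 76.4 and 150.3 TPM with 3'-butyl ABA and 49.8, 91.4 and 65.5 TPM with 3'-propyl ABA, so their groups overlapped. Of the 7 root hair markers 4 were called higher, against 32.9% of all genes tested. The count was 1 when the fit took its spread from all 12 libraries, and 6 and 5 without replicate 2 of 3'-butyl ABA or of 3'-propyl ABA. It was 2 with quantile normalization, without 3'-butyl ABA replicate 1 or 3 or 3'-propyl ABA replicate 1 or 3. The root stele markers PHO1, HKT1 and SKOR summed to 73.2, 50.9 and 54.3 TPM with 3'-butyl ABA and 29.9, 20.9 and 29.2 TPM with 3'-propyl ABA. HKT1 and SKOR averaged below 1 TPM and were not tested, so this sum is mostly PHO1 (1.14, called higher). DMSO libraries had 61.4, 30.8 and 38.7 TPM, again with replicate 1 the highest. Guard cell markers summed to 1067, 1097 and 1133 TPM with 3'-butyl ABA and 763, 738 and 605 TPM with 3'-propyl ABA. Of these 8 markers 4 were called higher, against 32.9% of all genes tested, and none lower, led by MYB60 (1.04 ± 0.16) and BLUS1 (1.02 ± 0.18). Xylem markers were less far apart, at 219, 166 and 206 TPM with 3'-butyl ABA and 162, 143 and 141 TPM with 3'-propyl ABA; 4 of 5 were called higher, and 2 with median-of-ratios scaling, with the spread from all 12 libraries, without 3'-butyl ABA replicate 1 or 3 or without 3'-propyl ABA replicate 2 or 3. Phloem companion cell markers overlapped, at 322, 315 and 305 TPM with 3'-butyl ABA and 349, 307 and 331 TPM with 3'-propyl ABA, since SUC2 was higher (0.83 ± 0.11) and AHA3 lower (-0.82 ± 0.06). Of 5 stomatal lineage markers 2 were called higher, near the 32.9% of all genes tested, and 0 with quantile normalization. No defining marker of these cell types was at 0 in all 6 libraries, and of the 5 trichome and shoot meristem markers CLV3 was. In whole seedlings fewer cells of a type and less RNA per cell cannot be told apart, and the part of these root and guard cell markers in the results that follow was not tested.

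**Figure D3:**
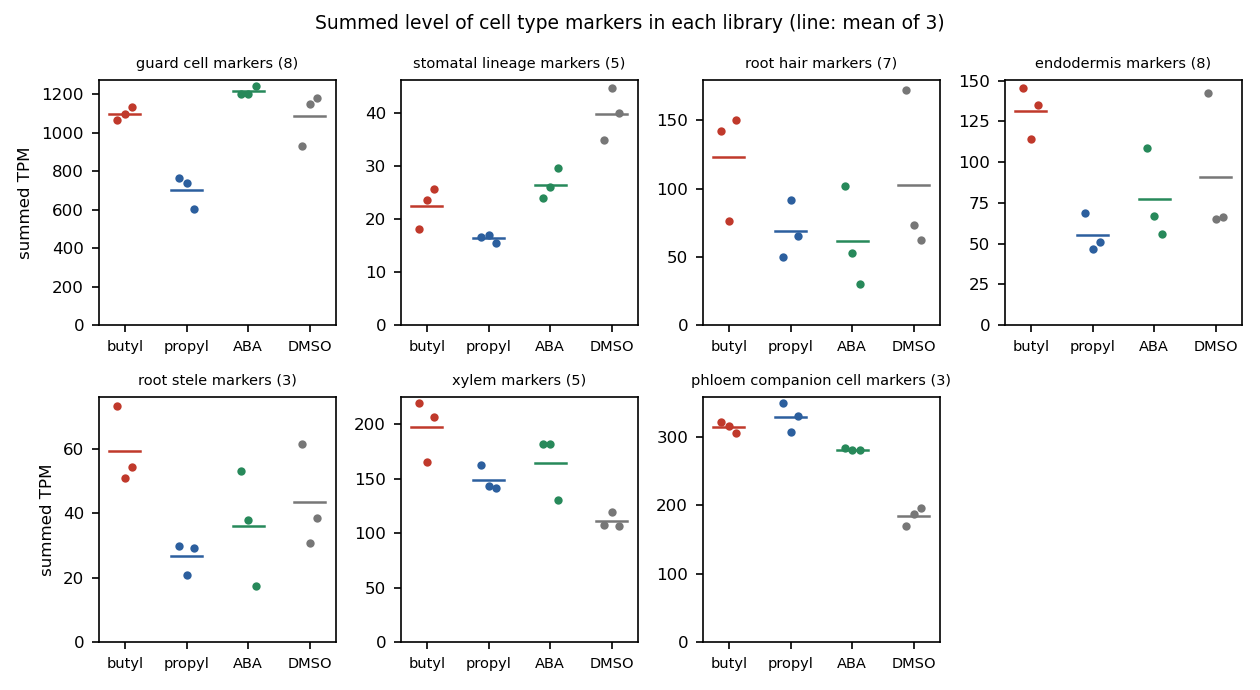
Each panel gives the summed TPM of a list of cell type markers (number of markers in brackets) in every library, as points, with the mean of 3 as a line, for 3'-butyl ABA, 3'-propyl ABA, ABA and DMSO. The endodermis, root stele and guard cell sums of the 3 libraries with 3'-butyl ABA lie above those with 3'-propyl ABA, and the root hair and phloem sums overlap. The endodermis sum ranges from 65.0 to 142 TPM among the DMSO libraries, and the root stele sum is mostly PHO1.

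At the start of the pathway, 8 of 9 tested ABA receptor genes were higher with 3'-butyl ABA and none was lower. Their median change was 1.11, and 32.9% of all genes tested were higher. PYL4 had 56.4, 53.3 and 61.8 TPM with 3'-butyl ABA, against 6.57, 6.51 and 8.87 TPM with 3'-propyl ABA (2.82 ± 0.12, limma adjusted p = 4.4e-07). PYL6 had 5.64, 4.59 and 5.53 TPM with 3'-butyl ABA, against 0, 0.101 and 0.274 TPM with 3'-propyl ABA (2.48 ± 0.17). The libraries of the compounds were far apart for both. PYL5 (1.47 ± 0.10), PYL7 (1.45 ± 0.14), PYR1 (1.11 ± 0.09), PYL8 (0.94 ± 0.08), PYL2 (0.80 ± 0.15) and PYL9 (0.78 ± 0.12) were higher by smaller amounts. PYL1 was not called, at 12.8, 13.1 and 17.5 TPM with 3'-butyl ABA, against 13.9, 15.9 and 11.3 TPM with 3'-propyl ABA, with overlapping groups and a 95% interval of -0.26 to 0.41. The other 5 receptor genes, PYL3 and PYL10 to PYL13, did not reach a mean of 1 TPM and were not tested.

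The 9 clade A PP2C genes, which encode the phosphatases that the receptors inhibit, were all lower with 3'-butyl ABA, with a median change of -0.71. HAI3 had 46.7, 30.1 and 26.5 TPM with 3'-butyl ABA, against 111, 79.6 and 99.1 TPM with 3'-propyl ABA (-1.49 ± 0.21), and ABI2 had 90.8, 78.6 and 71.5 TPM with 3'-butyl ABA, against 212, 217 and 219 TPM with 3'-propyl ABA (-1.42 ± 0.09, limma adjusted p = 2.9e-06). HAB1 (-1.16 ± 0.10), HAI1 (-0.95 ± 0.10), ABI1 (-0.71 ± 0.09), HAB2 (-0.68 ± 0.08), HAI2 (-0.65 ± 0.09), AHG1 (-0.53 ± 0.15) and PP2CA (-0.51 ± 0.09) followed. The groups did not overlap for any of the 9; every 3'-butyl ABA library was below every 3'-propyl ABA library for 22.3% of all genes tested. The call of AHG1 is the least secure: its limma adjusted p was 0.016, 0.30 with the spread taken from all 12 libraries, and 0.058 to 0.060 without 3'-butyl ABA replicate 2 or 3 or 3'-propyl ABA replicate 3. Of 10 SnRK2 kinase genes 3 were higher, 4 lower and 3 not called, with a median of -0.03, against 32.9% higher and 19.0% lower among all genes. SNRK2.7 stood apart, at 9.90, 7.44 and 5.23 TPM with 3'-butyl ABA, against 51.5, 55.0 and 74.0 TPM with 3'-propyl ABA (-2.86 ± 0.21). OST1, the kinase of stomatal closure, had overlapping groups and an interval of -0.34 to 0.07.

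**Figure D4:**
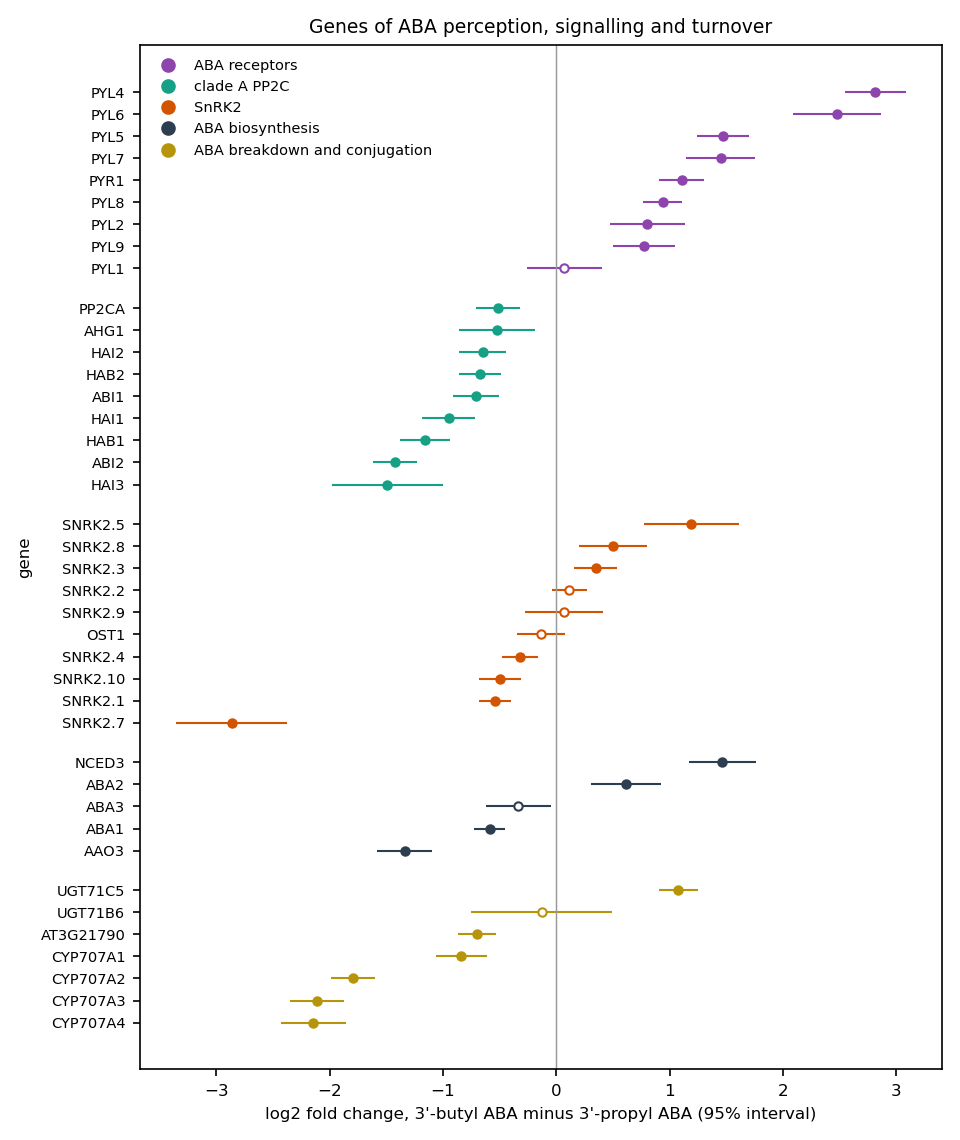
Points are log2 fold changes of 3'-butyl ABA over 3'-propyl ABA, on log2(TPM + 1), with 95% intervals, for the tested genes of ABA perception, signalling, synthesis and breakdown; open points were not called. The receptor genes lie at or right of 0, the 9 PP2C genes left of 0, and the 4 CYP707A hydroxylase genes left of 0 with CYP707A1 the nearest to it.

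Among 20 transcription factor genes of the ABA pathway 15 were lower with 3'-butyl ABA, ATAF1 was higher and 4 were not called. The median was -0.81, and 19.0% of all genes tested were lower. MYB44, a factor of stomatal and salt responses, had 125, 103 and 112 TPM with 3'-butyl ABA, against 359, 418 and 422 TPM with 3'-propyl ABA (-1.81 ± 0.09), and the groups lay far apart. MYB2 (-2.26 ± 0.14), NAC019 (-1.76 ± 0.08) and MYB102 (-1.54 ± 0.15) were the other large decreases. ABF1, ABF2 and ABF4, whose products bind ABREs, were not called. ABF3 and ABI5 were tested in this list too and their values are not given here, so these 3 do not stand for all ABRE-binding factors. ABF4 had 62.2, 47.6 and 48.6 TPM with 3'-butyl ABA, against 56.9, 48.4 and 51.6 TPM with 3'-propyl ABA, with an interval of -0.24 to 0.25, and ABF1 and ABF2 had intervals of -0.06 to 0.25 and -0.33 to 0.14. These 3 genes therefore differed by less than 1 log2 unit in either direction.

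Genes that break down ABA were lower with 3'-butyl ABA. The CYP707A genes encode the 8'-hydroxylases that inactivate the hormone. CYP707A3 had 19.1, 17.9 and 17.8 TPM with 3'-butyl ABA, against 71.5, 97.0 and 80.3 TPM with 3'-propyl ABA (-2.11 ± 0.11, limma adjusted p = 1.1e-06). CYP707A4 (-2.14 ± 0.13), CYP707A2 (-1.79 ± 0.09) and CYP707A1 (-0.84 ± 0.10) were lower too, as was the UDP-glycosyltransferase gene AT3G21790 (-0.70 ± 0.07). UGT71C5, whose enzyme attaches glucose to ABA, was higher, at 29.9, 31.4 and 29.0 TPM with 3'-butyl ABA, against 13.96, 13.9 and 13.4 TPM with 3'-propyl ABA (1.08 ± 0.08), and UGT71B6, another glucosyltransferase of ABA, was not called (interval -0.75 to 0.49). Over the 7 tested genes of the list the median was -0.84. Of 5 biosynthesis genes NCED3, the rate-limiting enzyme of ABA synthesis, was higher, with 131, 115 and 94.5 TPM with 3'-butyl ABA, against 40.7, 45.4 and 34.8 TPM with 3'-propyl ABA (1.47 ± 0.13), and so was ABA2 (0.61 ± 0.14). AAO3, the aldehyde oxidase of the last step, was lower, with 11.9, 14.2 and 14.7 TPM with 3'-butyl ABA, against 31.9, 39.5 and 36.2 TPM with 3'-propyl ABA (-1.34 ± 0.11), as was ABA1 (-0.59 ± 0.06). The list of synthesis genes thus had no common direction.

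Of the 23 genes of the LEA and dehydration list 21 were lower with 3'-butyl ABA, against 19.0% of all genes tested. The median of the list was -1.50. LEA proteins are hydrophilic proteins thought to protect cells as water is lost. RAB18, a dehydrin, had 582, 559.8 and 561 TPM with 3'-butyl ABA, against 3558, 3012 and 3966 TPM with 3'-propyl ABA (-2.62 ± 0.10, limma adjusted p = 2.5e-07). The lipid transfer protein gene LTP4 had 438, 479 and 425 TPM with 3'-butyl ABA, against 2874, 3732 and 3783 TPM with 3'-propyl ABA (-2.94 ± 0.11), and its tandem neighbour LTP3 629.8, 633 and 584 TPM with 3'-butyl ABA, against 3516, 3869 and 4154 TPM with 3'-propyl ABA (-2.64 ± 0.08). RD20, a caleosin of lipid droplets, had 133, 137 and 132 TPM with 3'-butyl ABA, against 843, 936 and 1067 TPM with 3'-propyl ABA (-2.81 ± 0.09). For these 4 genes every 3'-butyl ABA library lay far below every 3'-propyl ABA library. COR15B alone was called higher (0.35 ± 0.09), and it was not called with median-of-ratios scaling or with the spread from all 12 libraries; XERO1 was not called. LTP3 and LTP4 share no identical stretch of 100 bases, nor do KIN1 and KIN2 or COR15A and COR15B.

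The 250 bases before the annotated start of 3 genes of the list and of EXPA8 are printed here, from the RefSeq TAIR10.1 genome, because matches to the letters of the ABRE were counted in them. Capitals mark the letters ACGTGNC on either strand. The 3 genes were chosen for holding matches and EXPA8 as the leading expansin.
RD29B (chr5:21236771-21237020, plus strand): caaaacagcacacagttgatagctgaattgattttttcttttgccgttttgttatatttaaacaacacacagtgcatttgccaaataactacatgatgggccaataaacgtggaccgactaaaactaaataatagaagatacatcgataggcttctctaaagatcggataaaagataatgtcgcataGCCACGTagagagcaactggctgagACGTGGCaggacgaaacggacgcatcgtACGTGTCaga
LEA7 (chr1:19619474-19619723, plus strand): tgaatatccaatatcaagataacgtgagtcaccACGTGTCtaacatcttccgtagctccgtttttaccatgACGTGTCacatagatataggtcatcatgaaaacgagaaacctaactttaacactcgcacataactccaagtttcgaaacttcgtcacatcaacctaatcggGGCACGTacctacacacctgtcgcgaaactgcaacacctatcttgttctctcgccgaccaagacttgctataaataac
LEA4-5 (chr5:2090431-2090680, minus strand): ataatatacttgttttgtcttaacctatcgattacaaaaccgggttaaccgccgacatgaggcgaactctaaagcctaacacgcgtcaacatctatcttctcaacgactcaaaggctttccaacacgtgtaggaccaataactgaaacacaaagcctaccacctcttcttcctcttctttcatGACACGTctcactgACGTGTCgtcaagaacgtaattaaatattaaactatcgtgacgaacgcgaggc
EXPA8 (chr2:16950706-16950955, minus strand): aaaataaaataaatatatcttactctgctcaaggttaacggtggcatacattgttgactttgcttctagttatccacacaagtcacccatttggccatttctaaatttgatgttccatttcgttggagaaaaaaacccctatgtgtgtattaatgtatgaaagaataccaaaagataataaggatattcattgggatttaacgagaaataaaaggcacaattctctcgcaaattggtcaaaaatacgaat
RD29B and LEA7 hold 3 matches each, LEA4-5 holds 2 and EXPA8 none. RD29B had 316, 241 and 242 TPM with 3'-butyl ABA, against 1035, 839 and 1173 TPM with 3'-propyl ABA (-1.92 ± 0.14). LEA7 (-1.81 ± 0.17) and LEA4-5 (-1.77 ± 0.14) were lower by similar amounts. Windows of the same length held the letters ACGTGNC in 10.0% of 19273 tested genes, in 11 of the 23 genes of the list (47.8%), in 17.58% of the 876 genes at least 1 log2 unit lower with 3'-butyl ABA and in 7.46% of the 1167 genes at least that much higher. Among lists that were mostly lower, the letters stood in 3 of 9 PP2C, 7 of 20 transcription factor and 3 of 9 wax genes, and among lists that were mostly higher in 5 of 17 light harvesting, 4 of 21 auxin and 1 of 17 cell wall genes. A match is a run of letters and does not show that a factor binds there.

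Genes of the surface and root barriers were mostly lower with 3'-butyl ABA, against 19.0% lower among all genes tested. In the cuticular wax list 7 of 9 genes were lower, KCS12 was higher (0.60 ± 0.11) and CER4 was not called, with a median of -1.51. CER1, which makes the alkanes of wax, had 133, 132 and 137 TPM with 3'-butyl ABA, against 528, 603 and 562 TPM with 3'-propyl ABA (-2.06 ± 0.07, limma adjusted p = 2.4e-07). CER3, its partner enzyme, had 67.1, 69.6 and 71.1 TPM with 3'-butyl ABA, against 216, 275 and 253 TPM with 3'-propyl ABA (-1.82 ± 0.09). WSD1 (-1.997 ± 0.15), a wax ester synthase gene, and KCS1 (-1.80 ± 0.09), a fatty acid elongase gene, were lower as well. In the suberin list, of the waxy barrier in roots, 11 of 19 genes were lower and MYB92 higher, with a median of -0.43, and 7 were lower and none higher with the spread from all 12 libraries. The elongase gene KCS2 had 111, 82.7 and 89.2 TPM with 3'-butyl ABA, against 429.9, 461 and 483 TPM with 3'-propyl ABA (-2.28 ± 0.10), and KCS20 (-1.08 ± 0.08) and ASFT (-1.01 ± 0.11), which adds ferulate, came next. These suberin genes were lower in the same libraries in which the endodermis markers CASP1 to CASP4 were higher.

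Of 14 flavonoid and anthocyanin genes 9 were lower and 2 higher, with a median of -0.53. The shares over all genes tested were 19.0% lower and 32.9% higher. PAP1, the MYB activator of anthocyanin genes, had 6.81, 9.65 and 6.39 TPM with 3'-butyl ABA, against 60.2, 102 and 64.3 TPM with 3'-propyl ABA (-3.13 ± 0.22, limma adjusted p = 1.9e-05), and its relative PAP2 had 5.52, 2.64 and 3.01 TPM with 3'-butyl ABA, against 18.7, 24.98 and 34.9 TPM with 3'-propyl ABA (-2.53 ± 0.27). The bHLH partner gene TT8 was lower (-1.41 ± 0.23), as was MYBL2, a repressor of the pathway (-0.98 ± 0.09). The enzyme gene DFR was not called, and its groups overlapped, at 22.4, 5.40 and 8.53 TPM with 3'-butyl ABA and 10.6, 13.7 and 19.0 TPM with 3'-propyl ABA. The 2 higher genes were MYB12 (0.90 ± 0.20) and TT7 (0.67 ± 0.24), and 1 gene was called higher with either scaling, with the spread from all 12 libraries, or without any single 3'-butyl ABA library or 3'-propyl ABA replicate 2.

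Nuclear genes of photosynthesis were higher with 3'-butyl ABA as a group, against 32.9% higher among all genes tested. All 17 genes of light harvesting and the photosystems were called higher, with a median of 0.93, and 16 with quantile normalization. LHCB5, which binds chlorophyll at photosystem II, had 2936, 2899.6 and 2909 TPM with 3'-butyl ABA, against 1455, 1111 and 934 TPM with 3'-propyl ABA (1.34 ± 0.14), with a narrow spread under 3'-butyl ABA and a wider one under 3'-propyl ABA. LHCB1.2 (1.34 ± 0.13), LHCB2.2 (1.26 ± 0.14) and LHCB3 (1.25 ± 0.15) were next; LHCB2.2 shares 12.4% of its 100-base stretches with LHCB2.1. All 10 Rubisco and Calvin cycle genes were higher, with a median of 0.95. RBCS1B, a small subunit of Rubisco, had 459, 494 and 492 TPM with 3'-butyl ABA, against 125, 88.9 and 75.9 TPM with 3'-propyl ABA (2.34 ± 0.16), the largest change of the list, and RBCS2B (1.27 ± 0.07), the Rubisco activase gene RCA (1.16 ± 0.12) and the phosphoribulokinase gene PRK (1.02 ± 0.12) followed. RBCS1B shares 7.47% of its 100-base stretches with RBCS3B, which may blur their separate values.

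Chlorophyll synthesis and breakdown went opposite ways, beside 32.9% higher and 19.0% lower among all genes tested. Of 12 synthesis genes 11 were higher with 3'-butyl ABA and GUN4 was not called, with a median of 0.58. PORB, a light-dependent protochlorophyllide reductase gene, had 1066, 1161 and 1148 TPM with 3'-butyl ABA, against 515, 459.6 and 371 TPM with 3'-propyl ABA (1.34 ± 0.11), and PORA (1.86 ± 0.15), CHLM (1.11 ± 0.11) and PORC (0.94 ± 0.09) were higher as well. Of 13 chlorophyll breakdown and senescence genes 9 were lower and 3 higher, with a median of -0.87. PAO, the oxygenase that opens the chlorophyll ring, had 43.9, 49.1 and 47.6 TPM with 3'-butyl ABA, against 250.5, 293 and 277 TPM with 3'-propyl ABA (-2.52 ± 0.08, limma adjusted p = 2.4e-07). NYE2 (-1.87 ± 0.16) and SAG13 (-1.76 ± 0.08) were lower, while ASN1 (1.92 ± 0.33), an asparagine synthetase gene of carbon starvation, SEN1 (1.35 ± 0.26) and DIN10 (1.06 ± 0.14) were higher. The 3 higher genes are dark- or sugar-responsive genes and not enzymes of chlorophyll breakdown. The lower genes are not all such enzymes either, since the list also holds senescence genes such as SAG13.

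Genes of cell expansion were higher with 3'-butyl ABA, with a few large exceptions. Among all genes tested 32.9% were higher and 19.0% lower. Of 17 cell wall genes 12 were higher and 3 lower, with a median of 1.33. Every one of the 9 alpha-expansin genes of the list was among the 12. Over all genes with an alpha-expansin symbol 16 of 17 tested genes were higher, and EXPA16, outside the list, was lower, with 110.0, 159 and 165 TPM with 3'-butyl ABA, against 327, 391 and 396 TPM with 3'-propyl ABA (-1.37 ± 0.16). EXPA1 had 124, 111 and 109.8 TPM with 3'-butyl ABA, against 22.2, 18.3 and 18.9 TPM with 3'-propyl ABA (2.48 ± 0.09, limma adjusted p = 2.5e-07). The 3 lower genes were all xyloglucan endotransglucosylases, TCH4, described above, XTH24 with 219, 235 and 264 TPM with 3'-butyl ABA, against 909, 1527 and 1156 TPM with 3'-propyl ABA (-2.29 ± 0.17), and XTH18 (-0.997 ± 0.22). Of 17 aquaporin genes, which encode water channels, 10 were higher and 3 lower, with a median of 0.53. With median-of-ratios scaling 10 were higher and 5 lower. The share of 3 lower genes was near that of all genes. The tonoplast channel TIP2;2 had 167, 135 and 159 TPM with 3'-butyl ABA, against 50.4, 35.9 and 47.3 TPM with 3'-propyl ABA (1.77 ± 0.13). PIP2;3 (1.50 ± 0.25) and PIP2;2 (1.48 ± 0.17) were higher and share 12.8% and 11.5% of their 100-base stretches with each other. PIP1;4 was lower, with 179, 199 and 191 TPM with 3'-butyl ABA, against 363, 433 and 435 TPM with 3'-propyl ABA (-1.11 ± 0.08).

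Auxin genes were mostly higher with 3'-butyl ABA, 17 of 21 against 3 lower, with a median of 1.1. All genes tested were higher for 32.9% and lower for 19.0%. The cluster SAUR19 to SAUR24, small auxin-induced genes that promote expansion, was higher throughout. SAUR20 had 17.2, 24.4 and 25.7 TPM with 3'-butyl ABA, against 3.92, 0.268 and 0.974 TPM with 3'-propyl ABA (3.33 ± 0.48), the widest spread under 3'-propyl ABA of the cluster, and SAUR21 had 23.6, 22.5 and 22.3 TPM with 3'-butyl ABA, against 2.82, 1.35 and 0.875 TPM with 3'-propyl ABA (3.22 ± 0.23). SAUR22 (3.05 ± 0.17) and IAA29, with 15.8, 18.21 and 19.3 TPM with 3'-butyl ABA, against 1.18, 0.378 and 0.801 TPM with 3'-propyl ABA (3.41 ± 0.18), were the other leading members. SAUR19 to SAUR24 share no identical stretch of 100 bases. The 3 lower genes were GH3.3, IAA17 and IAA3, and 1 gene was called lower without 3'-butyl ABA replicate 3 or without 3'-propyl ABA replicate 2.

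Other growth lists were higher by smaller amounts, beside 32.9% higher among all genes tested. In ribosome biogenesis 11 of 13 genes were higher and none lower, with a median of 0.48 and 10 to 12 called under either scaling. FIB2, a nucleolar fibrillarin gene, had 164, 168 and 166 TPM with 3'-butyl ABA, against 94.6, 115 and 115 TPM with 3'-propyl ABA (0.62 ± 0.08), and CBF5, a pseudouridine synthase gene, 174, 171 and 161 TPM with 3'-butyl ABA, against 114, 109 and 111 TPM with 3'-propyl ABA (0.59 ± 0.06). The window before FIB1 (0.39 ± 0.06) is shown for the telo box, AAACCCTA, which is in capitals.
FIB1 (chr5:21293897-21294146, plus strand): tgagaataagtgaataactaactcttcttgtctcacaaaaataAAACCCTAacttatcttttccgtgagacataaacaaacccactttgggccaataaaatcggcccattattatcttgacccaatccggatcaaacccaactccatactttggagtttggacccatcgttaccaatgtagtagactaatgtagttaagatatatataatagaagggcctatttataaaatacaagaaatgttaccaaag
The telo box letters, on either strand, stood in 4 of the 13 ribosome biogenesis windows (30.8%), in 1 of the 14 windows of cytosolic ribosomal protein genes, in 2 of the 9 of wax genes and in 3.54% of the windows of all tested genes. Cytosolic ribosomal protein genes were called higher for 10 of 14 with a median of 0.21, but for 1 of 14 with median-of-ratios scaling, which leaves no direction to report. Cell cycle and DNA replication genes were higher for 15 of 17, and for 12 and 13 with median-of-ratios scaling and quantile normalization, with a median of 0.43. CYCD3;1, a cyclin of the entry into division, had 20.1, 19.7 and 19.9 TPM with 3'-butyl ABA, against 13.7, 10.7 and 7.99 TPM with 3'-propyl ABA (0.86 ± 0.16), and CYCB1;2 (0.80 ± 0.14) and CYCB1;4 (0.76 ± 0.15) were higher too.

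Of the growth hormones, type-A response regulators, which are early cytokinin-induced genes, were higher for 5 of 8 and lower for 1, with a median of 0.52. ARR7 had 12.3, 16.7 and 13.9 TPM with 3'-butyl ABA, against 2.69, 2.398 and 4.67 TPM with 3'-propyl ABA (1.87 ± 0.20), and ARR16 was the lower one (-0.99 ± 0.17). In the gibberellin list GASA6 and GASA4 (1.49 ± 0.30) led 4 higher genes of 10, against 32.9% of all genes. GA2OX6, which inactivates gibberellin, was lower with 13.4, 12.4 and 14.8 TPM with 3'-butyl ABA, against 37.9, 40.8 and 41.2 TPM with 3'-propyl ABA (-1.49 ± 0.09). With median-of-ratios scaling 3 genes of the list were higher and 3 lower. Of 5 tested genes with a GASA symbol 2 were higher and 2 lower. The lower ones, GASA2 (-2.16) and GASA3 (-1.215), are outside the list. Of 5 brassinosteroid genes CPD (1.35 ± 0.12), BAS1 (1.28 ± 0.15) and BRI1 (0.39 ± 0.07) were higher, and BR6OX2 (-0.66 ± 0.10) and DWF4 (-0.62 ± 0.11) were lower.

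Of the jasmonate, ethylene and defence lists, only the jasmonate list had calls mostly in the same direction. Of 19 jasmonate genes 9 were lower with 3'-butyl ABA and JAZ3 was higher, with a median of -0.39. The count of lower genes was 13 with median-of-ratios scaling. It was 6 with the spread from all 12 libraries, without 3'-butyl ABA replicate 1 or without 3'-butyl ABA replicate 2. With a mean of at least 5 TPM it was 6 of 16 genes. Without 3'-propyl ABA replicate 2 it was 7, with 2 genes higher. JAZ1, a repressor gene induced by jasmonate, had 62.7, 70.3 and 72.4 TPM with 3'-butyl ABA, against 139.5, 191 and 143 TPM with 3'-propyl ABA (-1.18 ± 0.12), and JAZ7 (-1.39 ± 0.21), LOX3 (-1.25 ± 0.14) and JAZ5 (-1.02 ± 0.23) were lower too. Ethylene genes had no common direction, with 4 higher and 6 lower of 13, 1 higher with median-of-ratios scaling, and 2 higher without 3'-butyl ABA replicate 3 or 3'-propyl ABA replicate 1 or 3. The ethylene synthesis gene ACS2 was lower, at 1.46, 1.21 and 0.947 TPM with 3'-butyl ABA, against 10.4, 10.6 and 11.7 TPM with 3'-propyl ABA (-2.44 ± 0.14), and the oxidase gene ACO1 was higher (1.54 ± 0.20). Over all genes 32.9% were higher and 19.0% lower, and the defence list was near these shares, with 8 of 19 genes higher and 5 lower. With median-of-ratios scaling and quantile normalization 5 and 7 were higher and 5 and 8 lower, and 5 were higher without 3'-butyl ABA replicate 1. The 5 lower genes were all WRKY transcription factors, but the genes with a WRKY symbol had no common direction, with 15 higher and 20 lower of 48 tested genes and a median of -0.03, and WRKY72 (1.50 ± 0.19) and WRKY65 (1.296 ± 0.19) were higher. WRKY40 had 22.3, 26.4 and 31.5 TPM with 3'-butyl ABA, against 77.8, 132 and 85.1 TPM with 3'-propyl ABA (-1.81 ± 0.21) and WRKY33 50.9, 51.4 and 53.2 TPM with 3'-butyl ABA, against 149, 230.2 and 166 TPM with 3'-propyl ABA (-1.76 ± 0.14), and WRKY70 (-1.71 ± 0.17), WRKY53 and WRKY18 made up the rest. The flagellin receptor gene FLS2 was higher, with 18.8, 19.8 and 23.01 TPM with 3'-butyl ABA, against 6.96, 8.78 and 5.53 TPM with 3'-propyl ABA (1.43 ± 0.15). PAD3, of camalexin synthesis, was called higher (1.76 ± 0.53, limma adjusted p = 0.033), but 3'-propyl ABA replicate 3 lay close to the other group. It had 31.1, 27.9 and 23.3 TPM with 3'-butyl ABA, against 5.70, 3.45 and 18.3 TPM with 3'-propyl ABA. Its call was lost without each of 4 libraries in turn, with limma adjusted p of 0.080 to 0.12 without 3'-butyl ABA replicate 1, 2 or 3 or 3'-propyl ABA replicate 1.

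Low-oxygen genes were higher with 3'-butyl ABA for 8 of 10, with a median of 1.22. Counts in this paragraph stand beside 32.9% higher and 19.0% lower among all genes tested. SUS4, a sucrose synthase gene, had 128, 65.6 and 83.0 TPM with 3'-butyl ABA, against 32.8, 17.58 and 24.0 TPM with 3'-propyl ABA (1.84 ± 0.30), and HRE2, an ethylene response factor of hypoxia, 33.8, 18.5 and 19.5 TPM with 3'-butyl ABA, against 7.81, 5.75 and 7.49 TPM with 3'-propyl ABA (1.59 ± 0.22). The haemoglobin gene HB1 (1.46 ± 0.24) and the pyruvate decarboxylase gene PDC1 (1.43 ± 0.28) came next. With the spread taken from all 12 libraries 4 genes of the list were called, and PDC1 was not (limma adjusted p = 0.10). The summed endodermis markers and the root stele sum given above, which is mostly PHO1, were higher in the same 3 libraries. In the proline and raffinose list 5 of 10 genes were higher and 2 lower, with a median of 0.34. The share lower was near that of all genes. GOLS4, of raffinose synthesis, had 37.6, 32.3 and 27.2 TPM with 3'-butyl ABA, against 12.3, 10.8 and 8.48 TPM with 3'-propyl ABA (1.54 ± 0.15), and P5CS1, the main proline synthesis gene under stress, had 614, 525 and 488 TPM with 3'-butyl ABA, against 453, 399.9 and 385 TPM with 3'-propyl ABA (0.39 ± 0.10). Unlike the LEA list, these protective genes were not lower as a group. Of 6 nitrate genes 4 were higher and 1 lower, and 2 and 1 with median-of-ratios scaling. The nitrate transporter gene NRT1.5 led (1.42 ± 0.18). Of 3 iron genes the ferritin gene FER1 was lower, with 549, 621 and 628 TPM with 3'-butyl ABA, against 1383, 1621 and 1813 TPM with 3'-propyl ABA (-1.41 ± 0.10). Among 8 genes of branched-chain amino acid breakdown 2 were higher and 3 lower, led by AT1G21400 (-1.74 ± 0.08) and MCCA (1.00 ± 0.15). This list had no common direction. Of 11 starch breakdown genes 3 were lower, led by the beta-amylase gene BAM1 with 110.0, 82.3 and 81.1 TPM with 3'-butyl ABA, against 219, 214 and 269 TPM with 3'-propyl ABA (-1.36 ± 0.13), and DPE1 was higher (0.70 ± 0.10); 5 were lower with median-of-ratios scaling, and 3 were higher without 3'-propyl ABA replicate 2.

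Several lists showed little or no called difference, while 51.9% of all genes tested were called. limma called 0 of 8 oil body and seed storage genes, with a median of 0.98. That median was 0.19 without 3'-propyl ABA replicate 2, which was low, and 1.49 without 3'-propyl ABA replicate 3. The storage protein gene CRA1 had 415, 242 and 328 TPM with 3'-butyl ABA, against 169, 37.3 and 309.7 TPM with 3'-propyl ABA, with an interval of -0.82 to 3.51, so a 2-fold increase was not excluded for it. At an unadjusted p below 0.05, 0 of the 8 passed. Of 11 heat shock genes HSFB2A (-1.52 ± 0.14) and HSFA6B (-0.94 ± 0.17) were lower and 9 were not called; the chaperone gene HSP90.1 had an interval of -0.43 to 0.12. Of 12 clock genes 8 were not called, 3 were higher and CCA1 was lower (-0.60 ± 0.09). ELF3, of the evening complex, was the largest of the higher ones (0.67 ± 0.08), and LUX and PRR5 had intervals of -0.20 to 0.12 and -0.23 to 0.15.

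**Figure D5:**
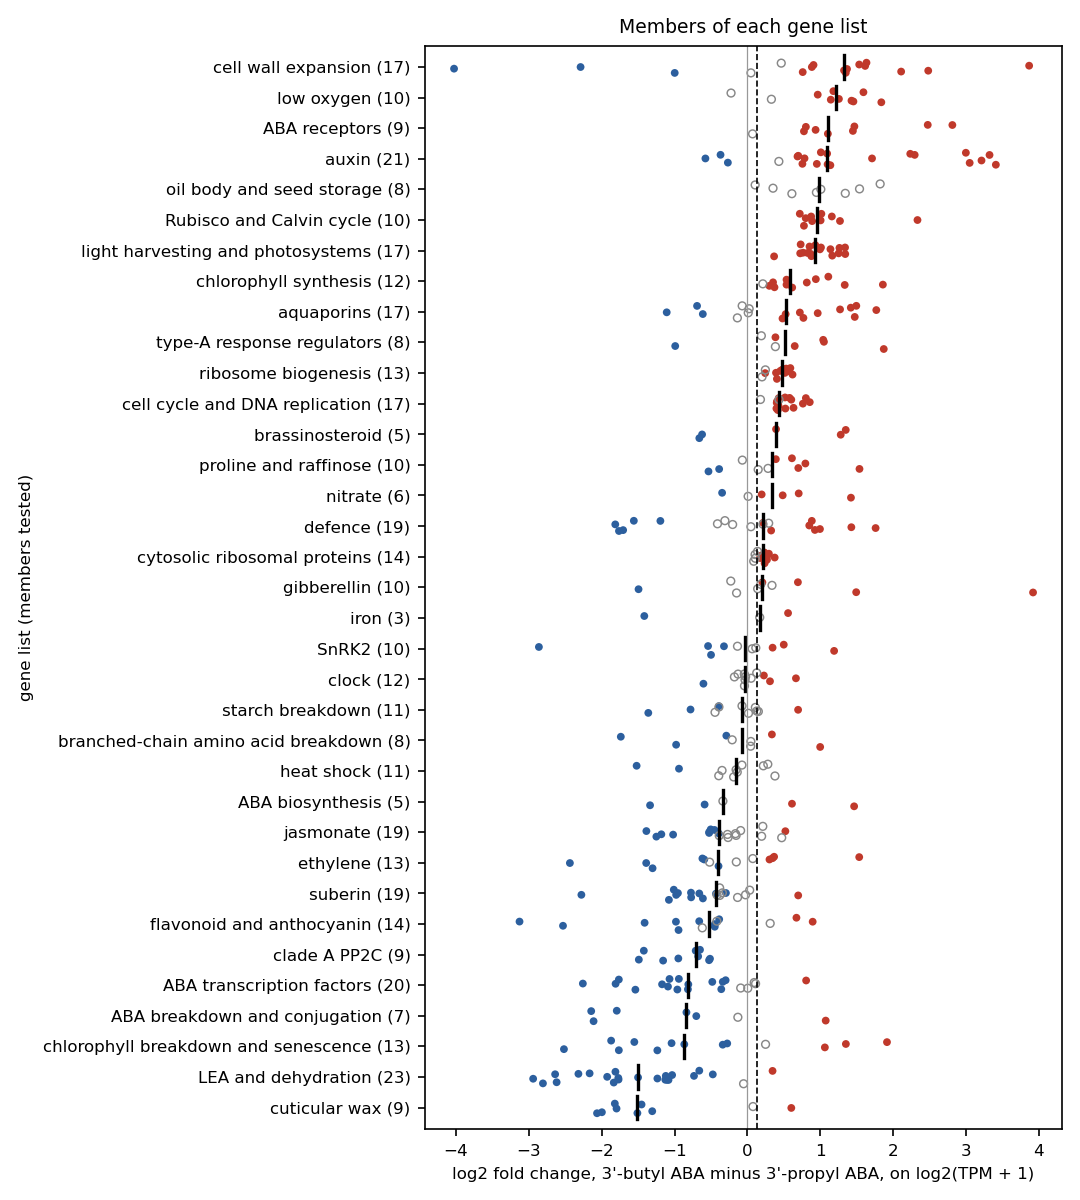
Each row is a gene list (tested members in brackets) and each point a member at its log2 fold change of 3'-butyl ABA over 3'-propyl ABA, on log2(TPM + 1); red points were called higher, blue points called lower, open points not called, black bars are list medians and the dashed line is the median of all genes (0.129). Medians run from 1.33 for cell wall expansion to -1.51 for cuticular wax, and the cell wall row holds members far out on both sides, with TCH4 at -4.03 and EXPA8 at 3.87.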

How the data were processed

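Strand-specific poly(A) libraries of whole seedlings were sequenced in pairs of 100-base reads on an Illumina HiSeq, per the labels' protocols. The authors deposited TPM per gene, and every library adds up to 1000000 over 27655 genes. Per the submitters' processing notes, bcl2fastq and TAIR10 were used. Which aligner, counter and annotation release were run, and whether counting used strand, is not given in the sources used here. Of the named genes, 46 overlap an annotated gene on the opposite strand. TPM is a share of each library, so a change in abundant transcripts moves all others.

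Here the 6 libraries of both compounds were put on the log2(TPM + 1) scale. A gene was tested if its TPM averaged 1 or more in them, which kept 19396 genes and left out 8259. A mean per compound was fitted with limma 3.58.1 in R 4.3.3 (lmFit, eBayes with trend and robust), two-sided, with 4 residual degrees of freedom and a prior of 5.34 (median over genes); p-values were adjusted by Benjamini-Hochberg across the tested genes and called below 0.05. Replicate numbers were not used as a block, since the labels do not say that they mark a shared plate or day. Deviations of same-numbered libraries correlated at 0.12, 0.22 and -0.01, and those of other-numbered pairs at -0.23 to 0.14. A fit with a replicate block is given below. Depth is an estimate from the steps of low values and covers counting error only.

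Named genes are the 12 largest increases and 12 largest decreases among called genes with non-overlapping libraries and a mean of at least 5 TPM in the higher group, up to 4 called members per list by absolute change, and all members of the receptor, PP2C and ABA breakdown lists, 186 in all. Other members are named where they were not called or went against their list, and these were picked after their values were seen. The comparison, 35 pathway lists and 8 marker lists (500 genes) were chosen with earlier results of these data known. Symbols and coordinates are those of RefSeq TAIR10.1, which holds 27445 of the gene IDs and lacks 210. Identical 100-base stretches between transcripts were searched on the same strand; 176 of the 186 named genes share none. Alternatives were the spread from all 12 libraries, both scalings, no filter on low genes or a mean of at least 5 TPM, a pseudocount of 0.1, only changes of 1 log2 unit or more, a replicate block, and leaving out each library.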

Additional observations from a re-analysis of the deposited data

How the results depend on the processing

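The counts of called genes kept their size in most settings: 10065 genes were called as reported, 9499 with the spread from all 12 libraries, 10242 without a filter, 8522 with a mean of at least 5 TPM, 9984 with a pseudocount of 0.1, and 9532 and 9250 with median-of-ratios scaling and quantile normalization. Requiring a change of 1 log2 unit or more left 2043 calls, 1167 higher and 876 lower. Leaving out a library gave 8023 to 9748 calls, 4921 to 6169 higher and 3102 to 3579 lower. The replicate block gave 10238 calls, 6486 higher and 3752 lower; the numbers mark no shared plate or day in the labels, and under the block PAD3 lost its call (limma adjusted p = 0.082) and 1 oil body gene gained one. Of 184 called named genes 23 lost the call in at least 1 setting, 14 of them with a library left out. No called named gene changed sign in these settings. Uncalled PYL1 (0.07) changed sign to -0.06 with quantile normalization, -0.05 with median-of-ratios scaling, -0.06 without 3'-butyl ABA replicate 3 and -0.05 without 3'-propyl ABA replicate 3 (up to 0.18 without its replicate 2), and uncalled UGT71B6 (-0.13) to 0.17 without 3'-propyl ABA replicate 3 (down to -0.39 without its replicate 1). Depth limits genes of a few TPM, and low genes have understated folds on log2(TPM + 1). The cause of these shifts was not tested.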

Other observations

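The gene families given here were chosen after their values were seen and have no test of the family. Members were taken by their symbols, so genes listed under another name, such as HRE2 and SAG29, are not counted. Over all genes 32.9% were higher and 19.0% lower with 3'-butyl ABA. In the calmodulin and calmodulin-like family, whose proteins bind calcium, 11 of 17 tested genes were lower with 3'-butyl ABA and 2 higher. CML23 had 4.99, 3.71 and 3.86 TPM with 3'-butyl ABA, against 19.4, 23.4 and 23.9 TPM with 3'-propyl ABA (log2 fold change -2.17, limma adjusted p = 2.7e-06), and CML42 went the other way, with 8.03, 7.80 and 7.99 TPM with 3'-butyl ABA, against 1.89, 1.15 and 0.748 TPM with 3'-propyl ABA (2.01). Of 34 DREB and ERF transcription factor genes, 1 of them in the ethylene list, 15 were lower and 6 higher, with a median change of -0.11. DREB26 had 6.45, 5.54 and 5.36 TPM with 3'-butyl ABA, against 47.7, 84.7 and 70.9 TPM with 3'-propyl ABA (-3.31), and ERF5 had 6.05, 4.38 and 4.63 TPM with 3'-butyl ABA, against 31.5, 45.0 and 32.5 TPM with 3'-propyl ABA (-2.62). In DREB26 and ERF5 the groups lay far apart. ERF53 (2.22), ERF8 (1.21), CBF1 (1.12) and CBF2 (0.92) were among the 6 higher genes.

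Of 10 tested sugar exporter genes with a SWEET symbol, 5 were lower and 2 higher, against 19.0% lower and 32.9% higher over all genes. SAG29, of the same family and lower as given above, is not in this count. SWEET4 had 20.9, 24.1 and 21.0 TPM with 3'-butyl ABA, against 153, 151 and 177 TPM with 3'-propyl ABA (-2.81, limma adjusted p = 2.4e-07). SWEET1 was lower as well (-2.98), and SWEET16 higher (1.26). Among 7 tested root meristem growth factor genes 4 were higher and none lower, a share of called genes close to the 51.9% over all genes. RGF9 had 135, 134 and 103 TPM with 3'-butyl ABA, against 14.8, 13.2 and 8.34 TPM with 3'-propyl ABA (3.28), with RGF6 listed at 0 in the 3'-propyl ABA libraries. Of 28 xyloglucan endotransglucosylase genes, 8 of them in the lists, 12 were higher and 9 lower, with XTH25 at 6.23, 4.11 and 7.13 TPM with 3'-butyl ABA, against 44.2, 56.5 and 35.8 TPM with 3'-propyl ABA (-2.77), so the family held large changes in both directions.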
